A study of Rattus norvegicus with 6 samples.

Results

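The 4 mature miRNAs described here are the arms of 2 hairpins, rno-miR-199a-5p and rno-miR-199a-3p from mir-199a and rno-miR-214-5p and rno-miR-214-3p from mir-214. They were chosen by name, as every probe of the array with the stem rno-miR-199a or rno-miR-214, and they are 4 of 761 rat miRNA probes. Cardiac miRNA was measured in adult male Sprague Dawley rats, 3 controls (animals 9, 10 and 11) and 3 with chronic colitis (animals 13, 14 and 16), with 1 array per rat. Colitis was induced with 3% dextran sodium sulfate (DSS), a sulfated sugar polymer that injures the colon lining, given in the drinking water in 4 cycles of 5 days with 9 days of plain water between them. The comparison asks which miRNAs of the heart differed after this repeated colitis.

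A miRNA gene is transcribed as a long precursor that folds into a hairpin, and each side of the hairpin can give a mature strand of its own, named 5p or 3p. A mature strand recognizes messenger RNAs mainly through its seed, the bases near its 5′ end. The mir-199a and mir-214 hairpins lie on the same strand inside Dnm3, opposite to the direction of that gene, and in mammals they are known as products of a shared long noncoding transcript, Dnm3os. In the heart both are commonly described as enriched in fibroblasts and other mesenchymal cells. miR-214-3p is known to limit the sodium-calcium exchanger of cardiomyocytes, miR-199a-5p to act on Hif1a and Sirt1, and miR-199a-3p to promote cardiomyocyte proliferation when supplied in excess.

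None of the 4 arms shares a seed with another, and the mature sequences are shown to identify the target of each probe. They are from RefSeq (assembly GRCr8, all on the plus strand of chromosome 13), read 5′ to 3′, with the seed, bases 2 to 8, in capitals. All 4 equal the target that the array lists for the probe.
rno-miR-199a-5p (chr13:77116255-77116277): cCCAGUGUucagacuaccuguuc
rno-miR-199a-3p (chr13:77116294-77116315): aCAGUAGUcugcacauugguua
rno-miR-214-5p (chr13:77121656-77121672): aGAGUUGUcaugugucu
rno-miR-214-3p (chr13:77121713-77121733): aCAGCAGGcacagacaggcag

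The hairpins are separated by 5310 bases, and the RefSeq table holds 1 mir-199a gene. The closest other target on the array was 9 single-base changes away for miR-199a-5p, 8 for miR-199a-3p, and 6 for each miR-214 arm, among 760 compared. The listed miR-214-5p target is the shortest of the 4, with 17 bases, and miR-214-3p has the highest GC content, 61.9% against a median of 47.8% over the 282 miRNAs tested.

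The mir-214 hairpin is shown whole to place its annotated arms and an antisense miRNA, with the annotated 5p and 3p arms in capitals. It lies at chr13:77121645-77121752 on the plus strand.
mir-214: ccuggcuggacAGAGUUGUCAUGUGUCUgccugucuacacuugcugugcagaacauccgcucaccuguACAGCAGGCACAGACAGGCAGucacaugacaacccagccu

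In a predicted minimum-energy fold, the 3p arm (bases 69 to 89) lay opposite bases 27 to 47 of the hairpin, while the annotated 5p arm covered bases 12 to 28. Only 2 of its 17 bases paired with the 3p arm. The opposite DNA strand encodes rno-miR-3120, the complement of bases 28 to 48, whose sequence is given with its seed in capitals because its probe shares this locus.
rno-miR-3120 (chr13:77121672-77121692, minus strand): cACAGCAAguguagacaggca
On the array only rno-miR-761 shares a seed with any of the 4 arms, that of miR-214-3p, and its sequence is given for comparison.
rno-miR-761: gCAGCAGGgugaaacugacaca

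In DSS hearts both arms of mir-199a were lower and miR-214-3p was higher than in control hearts, except that miR-199a-3p differed by 0.01 when arrays were scaled to the spike-in probes in place of LOWESS (adjusted p = 0.980). The difference was -1.58 for miR-199a-5p and -0.75 for miR-199a-3p, against 1.12 for miR-214-3p, all on the log2 scale of normalized signal. miR-214-5p was detected in DSS hearts alone and is described apart. The 3 arms detected in both groups passed an adjusted p of 0.05 in limma, a linear model fitted over 282 miRNAs with Benjamini-Hochberg adjustment. That threshold was passed by 49.3% of the miRNAs tested, 28.4% being lower and 20.9% higher in DSS, so that a call by itself sets no arm apart. Neither arm of mir-199a passed the threshold with spike-in or 5S rRNA scaling. There miR-199a-5p differed by -0.27 and -0.79 (limma adjusted p = 0.509 and 0.111). The RNA came from heart tissue, in which fewer cells of a type and less miRNA per cell cannot be told apart, and the arrays carry no information on the cells of origin.

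miR-199a-5p read 9.86, 9.08 and 9.04 on the control arrays of animals 9, 10 and 11, and 8.09, 7.46 and 7.70 on the DSS arrays of animals 13, 14 and 16 (log2 normalized signal). Every DSS heart was below every control heart, and control 9 stood above the other controls. The mean fell from 9.33 ± 0.47 to 7.75 ± 0.32 (SD, n = 3 per group), which is 2.98-fold lower in DSS (difference -1.58, SE 0.29, 95% confidence interval -2.28 to -0.87, limma adjusted p = 0.0151). In the authors' processed values, on a linear scale, this arm read 1078, 515 and 487 in controls and 219, 77 and 125 in DSS, again without overlap. It ranked 23rd from the lowest difference among the 282 miRNAs.

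miR-199a-3p had control values of 11.64, 11.78 and 11.84 and DSS values of 11.40, 10.96 and 10.67, in the same order of animals. The groups did not overlap, and DSS 13 lay nearest to the controls. The mean fell from 11.76 ± 0.10 to 11.01 ± 0.37 (SD, n = 3), which is 1.68-fold lower (difference -0.75, SE 0.23, 95% confidence interval -1.29 to -0.20, limma adjusted p = 0.0331). Before normalization the same arrays read 11.58, 11.94 and 12.23 in controls and 12.06, 10.44 and 10.43 in DSS, so that DSS 13 then lay among the controls. The authors' processed values, also normalized, were 3339, 3986 and 3944 in controls and 2972, 1579 and 1640 in DSS, with no overlap.

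For miR-214-3p the controls gave 9.63, 9.74 and 9.27, and the DSS hearts gave 10.15, 11.21 and 10.66. Each DSS heart was above each control heart, with DSS 13 again nearest to the controls. The mean rose from 9.55 ± 0.24 to 10.67 ± 0.53 (SD, n = 3), a 2.18-fold increase (difference 1.12, SE 0.30, 95% confidence interval 0.41 to 1.84, limma adjusted p = 0.0224). The lowest control value rests in part on a single spot. On the array of control 11, 3 spots of this probe read 1037, 1028 and 1335 and the remaining spot read 226. Without that spot the difference was 0.95 with an adjusted p of 0.0314. The authors' processed values were 850, 873 and 880 in controls and 1122, 1645 and 1690 in DSS.

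miR-214-5p was at the limit of detection. The control hearts gave 6.43, 6.27 and 6.30 and the DSS hearts 6.95, 6.81 and 6.91. It was detected on 0 of 3 control arrays and on 3 of 3 DSS arrays, where 4, 2 and 2 of its 4 spots passed, so this arm entered the test only through the group in which it was high and had to differ to be tested. Its adjusted p in limma (0.0283) and the separation of the groups are therefore no support for a difference. The measured means were 6.34 ± 0.09 in controls and 6.89 ± 0.07 in DSS (log2, SD, n = 3). Because the control spots were not well above background, the measured change is given as a bound of at least 1.18-fold. It was counted from the dimmest signal that passed detection on each array of the controls. The bound uses the same DSS values that let this arm into the test, so it too is no support for a difference. With a stricter detection limit of 5 SD of the empty spots, only 1 DSS array had miR-214-5p. The authors' processed values were 9, 2 and 10 in controls and 46, 36 and 48 in DSS.

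**Figure D1:**
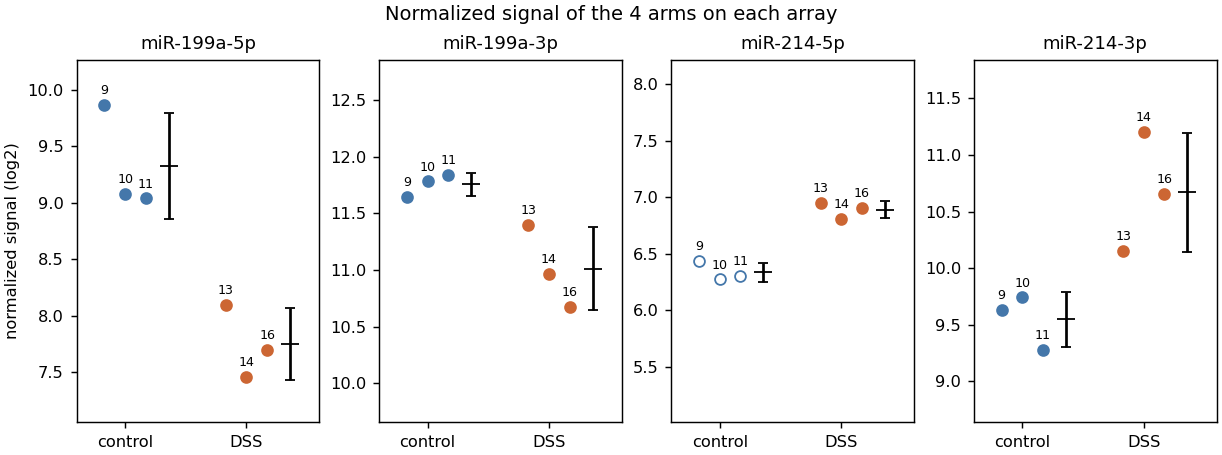
Normalized signal (log2, vertical axis) of each arm on the 3 control arrays (blue) and 3 DSS arrays (orange), numbered by animal, with the group mean and SD in black; open circles mark arrays on which the miRNA was not detected, and each panel spans the same number of log2 units. Neither miR-199a arm overlaps between groups and both are lower in DSS, whereas miR-214-3p is higher and miR-214-5p was detected on DSS arrays alone; miR-199a-3p was not lower (0.01) when arrays were scaled to the spike-in probes.

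The groups did not overlap for any of the 3 arms detected in both. Over all miRNAs tested, the share without overlap was 66.3%, of which 34.8% were lower and 31.6% higher in DSS. With 3 arrays against 3, the 2-sided exact permutation test of each of the 3 gave p = 0.1, which is the smallest p this design allows. miR-199a-3p ranked 79th from the lowest difference, and miR-214-3p ranked 42nd from the highest, so none of the 3 was at an extreme of the 282.

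**Figure D2:**
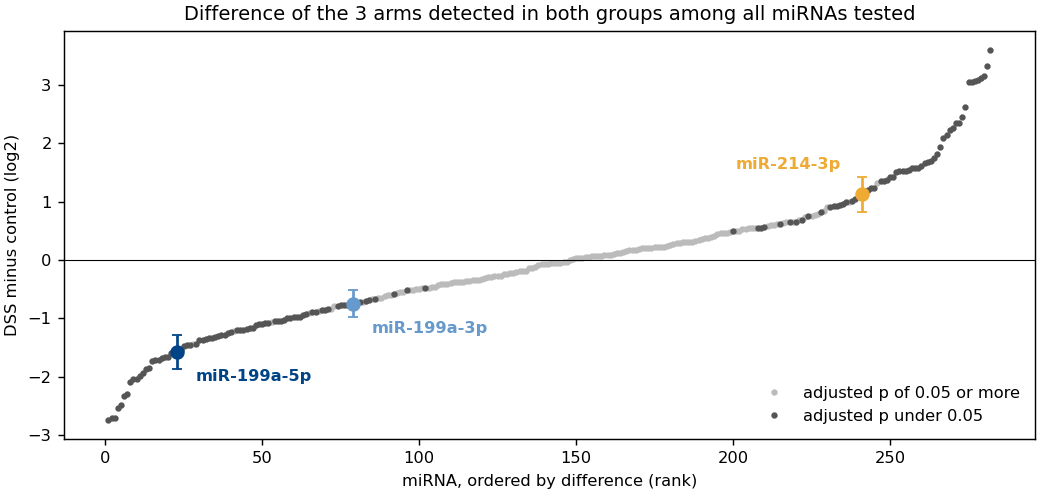
Difference between DSS and control (log2, vertical axis) of the 282 miRNAs tested, ordered from lowest to highest, with adjusted p under 0.05 in dark grey and the 3 arms detected in both groups in color with their standard errors. The miR-199a arms lie on the lower limb (-1.58 and -0.75) and miR-214-3p on the upper limb (1.12), with many other miRNAs beyond them on both sides; under spike-in scaling miR-199a-3p was at 0.01.

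Scaling of whole arrays cancels when 2 arms are compared on the same array. The difference miR-199a-5p minus miR-214-3p, in log2 units on each array, was 0.23, -0.66 and -0.24 in controls and -2.06, -3.75 and -2.96 in DSS. All DSS arrays were below all control arrays, and the mean moved by -2.70, from -0.22 ± 0.45 to -2.92 ± 0.84 (SD, n = 3). The difference miR-199a-3p minus miR-214-3p moved by -1.87, from 2.21 ± 0.31 to 0.34 ± 0.79. Neither pair overlapped between groups, and each had an exact permutation p of 0.1, the smallest possible, or 0.12 after adjustment over the 6 pairs compared. Without normalization they moved by -2.29 and -2.01. The direction of both was the same in each of the 20 alternatives that give such a difference. Alternatives that only scale whole arrays had to repeat the value found without normalization, so they add no further support. The 3 pairs with miR-214-5p are not used, since that arm was at background in controls and its log2 value there follows the floor. The pair of miR-199a-5p and miR-214-5p moved by -2.13 as processed here and by -5.26 in the authors' processed values with a floor of 1.

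Within mir-199a the arms were compared in the same way. The difference miR-199a-3p minus miR-199a-5p rose from 2.43 ± 0.57 to 3.26 ± 0.27 (SD, n = 3, exact permutation p = 0.1, adjusted 0.12), a movement of 0.83 with no overlap. It was 0.21 without control 9 (exact permutation p = 0.6) and 0.28 without normalization (exact permutation p = 0.5), so the size of this movement rested on control 9 and on the normalization.

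**Figure D3:**
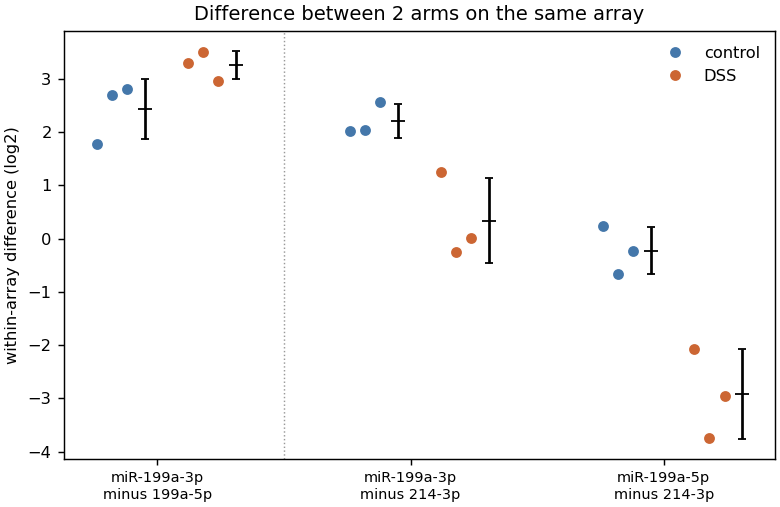
Difference between 2 arms on the same array (log2 units, vertical axis) for the 3 pairs of arms detected in both groups, with controls in blue, DSS in orange, and group mean and SD in black; the dotted line separates the pair within mir-199a (left) from the 2 pairs across hairpins (right). Both pairs across hairpins are lower in DSS with no overlap, moving by -1.87 and -2.70.

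Other neighbouring hairpins of the array give a measure of how often nearby miRNAs moved apart. This comparison was chosen after the values were seen and is a description, since neighbours share arrays and often a transcript, and a mature miRNA encoded by several hairpins counts in each. It used tested arms that were detected on at least 1 array of each group, which leaves out miR-214-5p. RefSeq placed 59 pairs of hairpins with such arms within 10 kb of each other on the same strand. In 10 pairs every such arm was called in the same direction, and in 2 pairs every such arm of one hairpin was called opposite to every such arm of the other. These 2 were mir-199a with mir-214, and Mir100 with Mirlet7a-2. The difference was -1.16 for mir-199a, averaged over its arms, and 1.12 for miR-214-3p, a gap of 2.29 that ranked 8th among the 59 pairs, whose median gap was 0.83. The count of 2 depended on the threshold. Mir133a1 with Mir1 (gap 3.99) missed it through miR-133a-3p (limma adjusted p = 0.0527), and Mir27b with Mir23b (gap 2.24) through miR-23b-3p (0.0550). Nearest to it were Mir92a2 with Mir19b2 and Mir19b1 with Mir92a1 (gap 2.66 each), which missed through miR-92a-3p (limma adjusted p = 0.0501). The count of 2 was made with LOWESS only. With spike-in scaling neither miR-199a-5p (-0.27, limma adjusted p = 0.509) nor miR-199a-3p (0.01, limma adjusted p = 0.980) was called. With 5S rRNA scaling they were at -0.79 (limma adjusted p = 0.111) and -0.52 (0.358), also not called. miR-214-3p was called with both scalings. The gap between the arms of mir-199a was also 0.83, against a median of 0.69 over 48 hairpins with both arms used.

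**Figure D4:**
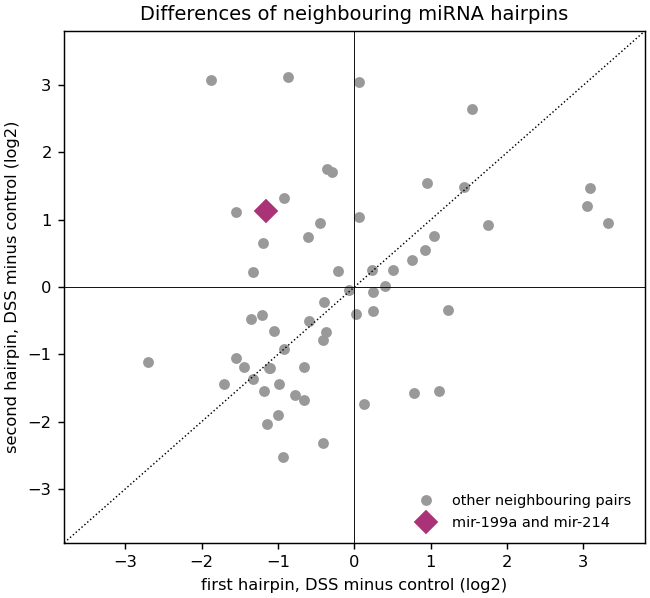
Mean difference between DSS and control (log2) of the arms of neighbouring hairpins that were tested and detected in both groups, the hairpin listed first on the horizontal axis and its neighbour on the vertical axis, for 59 pairs, with equality as a dotted line. The mir-199a and mir-214 pair (diamond) lies at -1.16 and 1.12, in the quadrant where the neighbours moved in opposite directions; 19 of the 59 pairs had means of opposite sign.

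The probes related to the pair by locus or seed gave no signal to set beside it. miR-3120 was detected on no array (6.39 ± 0.14 in controls and 6.31 ± 0.03 in DSS, log2, SD, n = 3). miR-761, which shares the seed of miR-214-3p, was detected on 1 DSS array and no control array (6.42 ± 0.09 and 6.44 ± 0.11). Neither entered the test.

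The miRNAs with the most similar profiles were those with the smallest root mean square distance (RMS) over the 6 arrays, each profile being centered on its own mean. For miR-199a-5p these were miR-24-2-5p (0.0870), miR-22-3p (0.0880), miR-425-5p (0.103), miR-201-5p (0.117) and miR-140-5p (0.159), against a median of 0.851 over the 281 other miRNAs. For miR-199a-3p they were miR-130a-3p (0.103), miR-324-5p (0.200), miR-676 (0.201), miR-139-5p (0.204) and miR-222-3p (0.205), with a median of 0.559. No arm had a member of its own locus among its nearest 5.
For miR-214-3p the nearest were miR-674-5p (0.153), miR-758-5p (0.169), miR-672-5p (0.179), miR-206-3p (0.205) and miR-466c-5p (0.206), with a median of 0.789. For miR-214-5p they were miR-493-3p (0.0643), miR-196c-5p (0.0683), miR-6317 (0.0716), miR-3583-3p (0.0796) and miR-200b-3p (0.0995), with a median of 0.573. Like miR-214-5p, these 5 were near background in controls, each detected on 0 or 1 control arrays and on 3 DSS arrays. Their closeness is therefore no support for a shared profile. Within a hairpin, miR-199a-3p was 79th nearest to miR-199a-5p, and miR-199a-5p was 135th nearest to miR-199a-3p. miR-214-5p was 55th nearest to miR-214-3p, and miR-214-3p was 108th nearest to miR-214-5p, ranks that rest on background values of miR-214-5p in controls.

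The arms were set beside a list of 18 other miRNAs that are known for roles in cardiac fibrosis or the heart's stroma, of which 16 were tested. In DSS 9 were lower, 1 was higher and 6 did not pass the threshold, although only 1 was lower with spike-in scaling and 2 with 5S rRNA scaling. With LOWESS, 62.5% were called against 49.3% of all miRNAs tested, and the median difference was -0.90 against -0.06. The lower members with the largest differences were miR-29c-3p (-2.74, adjusted p = 0.0197) and miR-29b-3p (-2.04, adjusted p = 0.0393, groups overlapping), of a family known to repress collagens, and miR-101a-3p (-2.04, adjusted p = 0.0248), known to restrain cardiac fibroblasts. The 1 higher call was miR-155-5p, a miRNA of immune activation, which was detected on 0 control and 3 DSS arrays. It too entered the test only through DSS, so its call (adjusted p = 0.0476) is no support for a difference, and the list had a higher call in 12 of 25 alternatives.
miR-21-5p, a well known profibrotic miRNA of cardiac fibroblasts, differed by 0.78 with a confidence interval of -1.13 to 2.69 (adjusted p = 0.427). The other members that did not pass were miR-133a-3p (-0.67), miR-24-3p (-0.55), miR-143-3p (-0.47), miR-133b-3p (-0.34) and miR-125b-5p (-0.22). miR-132-3p and miR-212-3p were detected on too few arrays to be tested.

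The summed signal of some lists of heart cell type markers differed between the groups, while that of others overlapped. The part of these markers in the differences of the 4 arms was not tested. Of 6 cardiomyocyte miRNAs, 4 or 5 were detected per array, and their summed signal was 41256 to 64517 in controls and 38659 to 94532 in DSS. Its members moved in different directions, with miR-1-3p higher (3.11, adjusted p = 0.0151), miR-499-5p lower (-2.09, adjusted p = 0.0213), and miR-133b-3p, the brightest over all 6 arrays, at -0.34 (adjusted p = 0.294). miR-208a-3p, from a myosin gene of the adult rat heart, was detected on 1 control array only, and miR-208b-3p on none. The endothelial miRNAs, led by miR-126a-3p, summed to 12159 to 20180 in controls and 4594 to 10208 in DSS. The smooth muscle miRNAs, led by miR-145-5p, summed to 11624 to 18122 and 8130 to 8347. Both of these sums were lower in DSS with no overlap in LOWESS-normalized signal, as 34.8% of all miRNAs tested were. In limma miR-126a-3p (-1.28, adjusted p = 0.0229) and miR-145-5p (-0.98, adjusted p = 0.0170) were called. The other members, miR-126a-5p (-1.21, adjusted p = 0.237) and miR-143-3p (-0.47, adjusted p = 0.0910), were not. These sums were not recomputed under other scalings.
The leukocyte list of 5 summed to 2893 to 5794 in controls and 10418 to 14660 in DSS. Its brightest member, miR-150-5p, was higher (1.59, adjusted p = 0.0201), and miR-146a-5p was also higher (1.42, adjusted p = 0.0213). However, miR-223-3p was lower (-1.35, adjusted p = 0.0299), and the defining members miR-142-3p and miR-142-5p were detected on 1 control and 0 DSS arrays. The erythroid list of 3 summed to 2829 to 6069 and 3803 to 5627, a sum that joins miR-486, higher in DSS (2.36, adjusted p = 0.0151), and miR-451-5p, lower in DSS (-2.53, adjusted p = 0.0161), with miR-144-3p on no array. The list for liver, epithelium and brain, led by miR-9a-5p, summed to no more than 502 on any array. Its members were not all absent, with 4 of 7 detected on DSS 13 and 1 on each other array. miR-9a-5p was detected on 3 control arrays and 1 DSS array, and miR-200b-3p on 0 control and 3 DSS arrays.

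The signal of control probes also differed between the groups before normalization. The spike-in probes averaged 10.83 ± 0.13 in controls and 9.88 ± 0.55 in DSS, and the 5S rRNA probes 13.41 ± 0.17 and 12.99 ± 0.14 (log2, SD, n = 3, exact permutation p = 0.1 for each). The miRNAs detected on all arrays were not lower in DSS, with 9.59 ± 0.28 in controls and 9.84 ± 0.43 in DSS (exact permutation p = 0.5). Between 223 and 365 miRNAs were detected per array. Each arm was therefore followed through 25 other ways of processing the arrays. miR-199a-5p stayed lower in all 25 and was called in 21, with differences from -2.33 to -0.27. miR-199a-3p stayed lower in 24 and was called in 13, and miR-214-3p stayed higher in all 25 and was called in 13, with differences from 0.60 to 2.02. miR-214-5p gave a fitted value in 24, from 0.38 to 2.93, which moved with the handling of the background. Single arrays mattered too, since without DSS 16 none of the 4 arms and none of the 282 miRNAs was called by limma, with 131 miRNAs at an unadjusted p under 0.05.

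**Figure D5:**
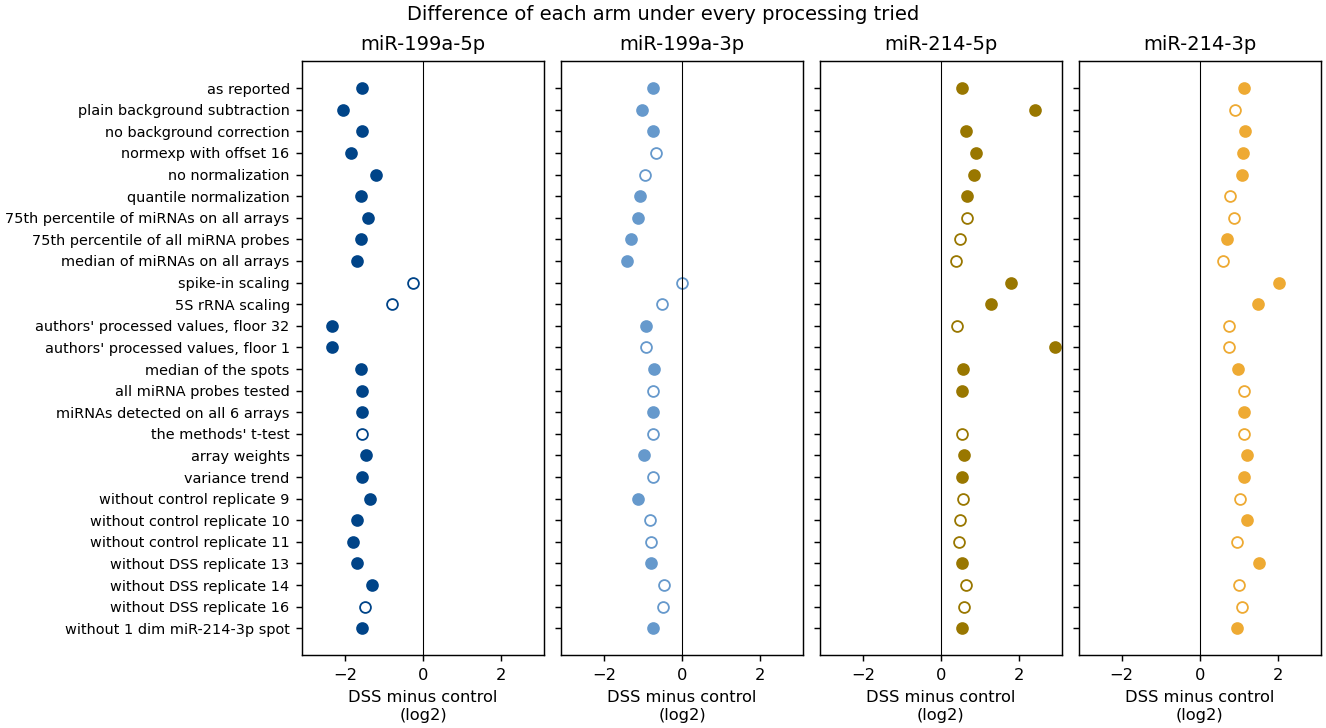
Difference between DSS and control (log2, horizontal axis) of each arm as reported and under each other way of processing (vertical axis), filled where the adjusted p was under 0.05. Values stay left of 0 for miR-199a-5p and right of 0 for miR-214-3p under every setting drawn, those of miR-214-5p are fitted values against controls at background, and miR-199a-3p reaches 0.01 under spike-in scaling.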

How the data were processed

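For each of 6 arrays the authors deposited scanner intensities, which per the file headers are the median brightness of each spot with background included, and the pixel SD of each spot as a further signal. The authors also deposited processed intensities, which they had made by background subtraction and a LOWESS filter. With R 4.3.3 and limma 3.58.1, background was removed by normexp (offset 50), log2 values of the 4 spots per probe were averaged, and arrays were normalized by cyclic LOWESS (span 0.7, 3 iterations) over 761 miRNA probes. A spot passed when it lay over 3 SD of the 632 empty spots above background, with a spot CV below 0.5, where background was the median brightness among the 25% of miRNA spots that were dimmest. Detection needed 2 of 4 spots, and a test needed detection on 3 of 6 arrays, which left out 479 probes. Differences were tested with lmFit and eBayes and adjusted by the Benjamini-Hochberg method (threshold 0.05). Pairs of arms were compared by 2-sided exact permutation. The processing was tested on simulated data in which a minority of miRNAs changed, in directions drawn at random. Changes as widespread as the calls found here were not simulated, so that test is no support for the choice of normalization. The hairpin was folded with ViennaRNA 2.7.2 RNAfold, Python 3.11.15 was used for sequences, and figures were drawn with matplotlib 3.10.9.

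Samples were grouped by their labels, which give an animal number and no slide or scan date. The number of arrays limits the precision. RefSeq mature entries matched 688 of 761 array names, and the mir-199a hairpin sequence and Dnm3os were not used here. The members, lists and tests were chosen with earlier results of these data known. The named miRNAs were the 4 arms, probes of the same locus or seed, the 5 nearest profiles per arm, the brightest marker of each cell type list, and, of the fibrosis list, the 3 largest called differences per direction and every member not called. Markers and neighbours named beyond that rule were chosen after their values were seen. Alternatives covered background, normalization, the filter, the spot summary, the test and each array left out.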

Additional observations from a re-analysis of the deposited data

How the results depend on the processing

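No paired analysis was possible because control and DSS rats carry different animal numbers, and a block for slide or scan could not be fitted because the files used here name neither. Of 25 alternatives, 24 were planned and 1, without the dimmest miR-214-3p spot of control 11, was added after the values were seen. Scaling to spike-ins moved the median of all miRNAs by 1.37, to 5S rRNA by 0.84, no normalization by 0.42, the 75th percentile of miRNAs detected on all arrays by 0.23, quantile normalization by 0.18 and plain subtraction by 0.17 (log2).

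miR-199a-3p turned to 0.0089 with spike-ins and missed the threshold at -0.67 with offset 16, -0.94 without normalization, -0.52 with 5S rRNA, -0.92 in the processed values with floor 1, and -0.75 with all probes tested, the methods' t-test or a variance trend. miR-199a-5p missed it at -0.27 with spike-ins, -0.79 with 5S rRNA and -1.58 in the t-test. miR-214-3p missed it at 0.91 with plain subtraction, 0.79 with quantile normalization, 0.88 with the 75th percentile and 0.60 with the median of miRNAs detected on all arrays, 0.75 in the processed values with either floor, and 1.12 with all probes or the t-test. miR-214-5p, not above background in controls, missed it at 0.66 and 0.48 with the 75th percentile of detected and of all miRNAs, 0.38 with the median, 0.43 with floor 32 and 0.55 in the t-test, and has no value where detection on all 6 arrays is required. The difference miR-214-3p minus miR-214-5p, which moved by 0.57 as processed here, turned to -1.50 with plain subtraction and -2.18 with floor 1. The cause of these changes was not tested.

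Leaving out 1 array gave -1.14 to -0.47 for miR-199a-3p, -1.79 to -1.31 for miR-199a-5p, 0.94 to 1.52 for miR-214-3p and 0.47 to 0.64 for miR-214-5p, with 0 to 4 arms called, miR-214-5p included. That number was 2 without control 9 or 10, 1 without control 11 or DSS 14, 4 without DSS 13 and 0 without DSS 16. Over all miRNAs it gave 0 to 147 calls, with 77 without control 9, 87 without control 11, 65 without DSS 14 and 0 without DSS 16. It gave 0 to 10 calls in the fibrosis list, with 1 without DSS 14. The number of arms called was 2 with spike-ins, 5S rRNA, the 75th percentile or median of detected miRNAs, the processed values or all probes, and 0 in the t-test, where all 4 had an unadjusted p under 0.05. All probes gave 74 calls and the t-test 0, with 155 unadjusted. The fibrosis list gave 2 calls with spike-ins, 3 with 5S rRNA or all probes, 5 with detection on all 6 arrays and 0 in the t-test. Calls were 59 higher and 80 lower as reported, but 168 and 10 with spike-ins, 129 and 14 with 5S rRNA, 81 and 38 without normalization, and 40 and 90 with the median of detected miRNAs. The fibrosis list had a higher member called in 12 of 25 alternatives. miR-214-5p was detected on 1 DSS array at 5 SD and on 1 at 3 SD above the median empty spot.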
